A study of Mus musculus with 36 samples.

Results

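The osteoclast culture of wild-type (WT) mouse bone marrow cells sorted as Ly6C-negative (Ly6Cneg) was described from 4 of the 34 RNA-seq libraries analysed. They were all the libraries labelled WT and Ly6Cneg in the normalised expression table: 2 of osteoclasts (OC) at day 4 and 2 of the starting bone marrow monocytes (BMM) at day 0. The OC cells had spent 4 days in MCSF at 20 ng/ml together with RANKL at 40 ng/ml. The BMM cells had received MCSF and no RANKL, so RANKL and culture time cannot be told apart. The other cultures set beside this one were Ly6Cneg cells whose label gives a conditional knockout, cKO, of Irf8, WT cells sorted as Ly6C-high (Ly6Chi) and WT cells sorted as Ly6C-intermediate (Ly6Cint), each with 3 OC and 3 BMM libraries and the same additions. Mice of both sexes entered the study. Not given in the sources used here were ages, the Cre driver of the knockout and the animal or culture behind each library, so the p-values below measure only how far these libraries scatter, which may be technical. Another 2 labelled samples of the WT Ly6Cneg groups, 1 of each stage, were not analysed here.

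Several measured facts bear on the labels. Ly6c2, which encodes the Ly6C surface antigen used for the sort, had levels of 12.48 and 12.03 in the WT Ly6Cneg BMM libraries, on the log2 scale of the deposited values. The WT Ly6Chi BMM libraries had lower Ly6c2 levels, 9.82 to 9.98, and the WT Ly6Cint BMM libraries higher ones, 13.47 to 13.62. The Ly6c2 RNA therefore did not follow the order of the sort labels. Irf8, the gene targeted in the knockout, had levels of 13.36 to 13.54 in the OC libraries labelled cKO Ly6Cneg and of 13.85 to 14.21 in the BMM libraries labelled cKO Ly6Cneg. In WT Ly6Cneg libraries Irf8 levels were lower, 11.93 and 11.85 in OC and 12.78 and 12.73 in BMM. Irf8 RNA was thus not lower under the knockout label, and "labelled cKO" is written throughout. The values are given per gene, so whether part of the gene was lost was not tested. Ddx3y, a Y-linked gene, had levels of 5.15 to 5.51 in the 4 WT Ly6Cneg libraries and 10.43 to 10.86 in the libraries labelled cKO Ly6Cneg. Xist, a transcript of female cells, had levels of 14.7 to 15.2 in the WT Ly6Cneg libraries and 12.5 to 13.8 in those labelled cKO Ly6Cneg. Differences between those cultures therefore cannot be told apart from the sex mix of the cells.

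Osteoclasts form from cells of the monocyte lineage. MCSF acts through the receptor Csf1r and keeps the precursors alive, and RANKL acts through RANK, encoded by Tnfrsf11a, to switch on NF-kappaB, Fos and then Nfatc1, the master transcription factor of the lineage. The cells fuse, attach to bone by integrin-rich podosomes, acidify the space beneath them with a vacuolar proton pump and secrete cathepsin K and other enzymes. Irf8 is known as a brake on this programme. Interferons are also known to restrain osteoclast formation.

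The promoters of 4 interferon-inducible genes are printed because genes of this class moved in opposite directions in different cultures. The genes were chosen after their values were seen. Each window runs from 250 bases before to 50 bases after the RefSeq gene start on GRCm38.p6, the NCBI name of the mm10 build, and is read 5′ to 3′ on the gene's own strand. Capitals mark matches to the core of the interferon-stimulated response element, GAAANNGAAA, or to its reverse complement. Ifit3, an antiviral RNA-binding protein, lies at chr19:34583279-34583578 on the plus strand and has 2 matches. Rsad2, which encodes the antiviral enzyme viperin, lies at chr12:26456403-26456702 on the minus strand and has 1 match. Isg15, a ubiquitin-like modifier, lies at chr4:156200769-156201068 on the minus strand and has 3 overlapping matches. Gbp2, a guanylate-binding protein induced by interferon-gamma, lies at chr3:142620413-142620712 on the plus strand and has 1 match.
Ifit3: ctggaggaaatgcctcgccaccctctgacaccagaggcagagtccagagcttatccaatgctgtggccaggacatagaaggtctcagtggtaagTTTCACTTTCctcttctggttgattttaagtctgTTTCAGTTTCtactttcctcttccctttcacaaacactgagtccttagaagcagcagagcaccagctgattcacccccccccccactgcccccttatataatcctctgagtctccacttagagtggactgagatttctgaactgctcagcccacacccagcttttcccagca
Rsad2: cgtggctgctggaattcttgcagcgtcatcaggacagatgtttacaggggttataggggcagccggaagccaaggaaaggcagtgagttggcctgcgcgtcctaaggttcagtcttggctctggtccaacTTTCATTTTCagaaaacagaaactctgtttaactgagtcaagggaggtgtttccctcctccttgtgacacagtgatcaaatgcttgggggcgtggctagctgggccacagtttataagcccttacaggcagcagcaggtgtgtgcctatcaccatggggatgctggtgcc
Isg15: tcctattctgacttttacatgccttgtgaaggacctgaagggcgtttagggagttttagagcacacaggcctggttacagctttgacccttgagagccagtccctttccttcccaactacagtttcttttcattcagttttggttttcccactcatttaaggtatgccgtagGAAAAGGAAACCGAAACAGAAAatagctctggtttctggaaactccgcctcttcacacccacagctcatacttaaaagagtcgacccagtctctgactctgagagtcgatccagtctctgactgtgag
Gbp2: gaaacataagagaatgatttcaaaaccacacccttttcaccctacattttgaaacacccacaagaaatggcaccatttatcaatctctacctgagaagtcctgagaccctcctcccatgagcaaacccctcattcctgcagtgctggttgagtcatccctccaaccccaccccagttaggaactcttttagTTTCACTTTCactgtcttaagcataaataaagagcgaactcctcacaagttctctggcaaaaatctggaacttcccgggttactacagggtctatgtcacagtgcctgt

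In windows of this kind, the element core was found on either strand at 1079 of 27025 mouse genes, 3.99%. It was found at 11 of the 20 listed type I interferon-stimulated genes with a window, 55%. Of 15 listed interferon-gamma-inducible GTPases 9 had a window, and all 9 held it. Of 33 listed genes of osteoclast fusion, resorption, podosomes and late differentiation 20 had a window, and 2 held it. The AP-1 site TGANTCA, the class of site bound by Fos and Jun proteins, was present at 8.97% of all genes, at 1 of the same 20 osteoclast genes and at 5 of the 20 type I interferon-stimulated genes. These matches describe the sequence only.

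Facts of the table are these. The values are on a log2 scale, already normalised by the authors, with 3.90 standing for 0 reads, and total reads per library are unknown. Relative depth read from the steps of low values was 1.28 and 1.35 in the OC libraries and 1.12 and 1.26 in the BMM libraries, within a range of 0.561 to 1.39 over all 34. Reads were found for 31113 and 32329 genes in the OC libraries and for 32805 and 32211 in the BMM libraries. Reads were also seen for 645 and 720 of 1051 olfactory receptor genes in the OC libraries and for 711 and 650 in the BMM libraries; over all 34 libraries this number ran from 86 to 914, so low values near the floor are common here. Replicates correlated across genes at r = 0.982 in OC and 0.98 in BMM, against 0.964 to 0.966 between OC and BMM libraries.

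A minority of the genes tested was called as changed over culture, and a gene not called may still have changed. Among the 19775 protein-coding genes tested 2307 were called higher and 1966 lower in OC. A larger share was thus called there than over all genes, which the all-gene shares used as background do not reflect. In WT Ly6Cneg cells 4758 of 38873 genes tested (12.2%) passed an adjusted p of 0.05 in limma's moderated test, of which 2547 (6.55%) were higher and 2211 (5.69%) lower in OC than in BMM. A difference of at least 2-fold was reached by 1735 genes called (4.46%), 850 of them higher (2.19%) and 885 lower (2.28%), and in 54 of the genes called both group means were under 5.28, the median level of the genes tested. In 147 of the genes called 1 group had 0 reads in both libraries. The median difference over all genes was -0.03 log2 units. It was -0.36 in labelled cKO Ly6Cneg, -0.28 in WT Ly6Chi and -0.06 in WT Ly6Cint cells, so the median difference of changes was 0.26 against labelled cKO Ly6Cneg and 0.18 against WT Ly6Chi as deposited, and 0.02 and 0.03 after quantile normalisation. The change over culture was called different from that in WT Ly6Chi cells for 19.6% of genes tested, from that in WT Ly6Cint cells for 17.7% and from that in labelled cKO Ly6Cneg cells for 17.3%. With 2 libraries against 2, an exact permutation test of a single gene cannot give a two-sided p under 0.333, so all calls rest on the spread pooled over 12 groups. In bulk RNA, fewer cells of a type and less RNA per cell cannot be told apart.

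Among the genes that met the naming rules given below, the largest rise was that of Src, the tyrosine kinase that organises podosomes, at chr2:157418444-157471862. Its level was 12.77 in both OC libraries, against 7.65 and 7.66 in BMM, a rise of 5.11 ± 0.32 log2 units (SE). Mmp9, a gelatinase secreted by osteoclasts, at chr2:164940780-164955850, had levels of 15.59 and 15.74 in OC and 10.83 and 10.52 in BMM and rose by 4.99 ± 0.36. The genes next in order of their rise were Cav1, the caveolae protein (4.95 ± 0.12), Cd207, the lectin langerin (4.87 ± 0.15), Serinc2 (4.76 ± 0.22), the secreted protease gene Htra1 (4.42 ± 0.22), the MHC class I-like gene H2-M2 (4.40 ± 0.19) and Gpr162, an orphan receptor (4.32 ± 0.12). Nptx1, Mmp14, Acp5, Akap6, Cx3cr1 and Coq8a were among those that followed, with log2 differences of 3.51 to 4.24.

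Under the same rules the largest fall was that of Arg1, the arginase of alternatively activated macrophages, at chr10:24915221-24927484. Its level was 7.21 and 7.36 in OC, against 15.50 and 15.65 in BMM, a difference of -8.29 ± 0.31 log2 units, or 0.0032 of the BMM value on that scale. Next came Mpo, the myeloperoxidase of granulocyte precursors, with levels of 7.17 and 6.89 in OC and 14.50 and 14.23 in BMM. Mgl2, a macrophage galactose lectin, differed by -7.28 ± 0.19 and Rnase2a, an eosinophil-type ribonuclease, by -6.92 ± 0.24. Elane, Prtn3 and Ctsg, proteases of the same granules as Mpo, differed by -6.18 to -6.32, as did F13a1, the monocyte coagulation factor XIII subunit, by -6.25 ± 0.21 and Prss34, a basophil and mast cell protease, by -6.21 ± 0.57. Phgdh, Ear2, Msx3, Plac8, Ly6c2 and Ednrb completed the 15 largest falls, with log2 differences of -5.66 to -4.80; Ear2 has close relatives in the genome, which makes its reads uncertain. These genes were chosen on the condition that the OC and BMM libraries did not overlap, which 51.5% of all genes met.

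**Figure D1:**
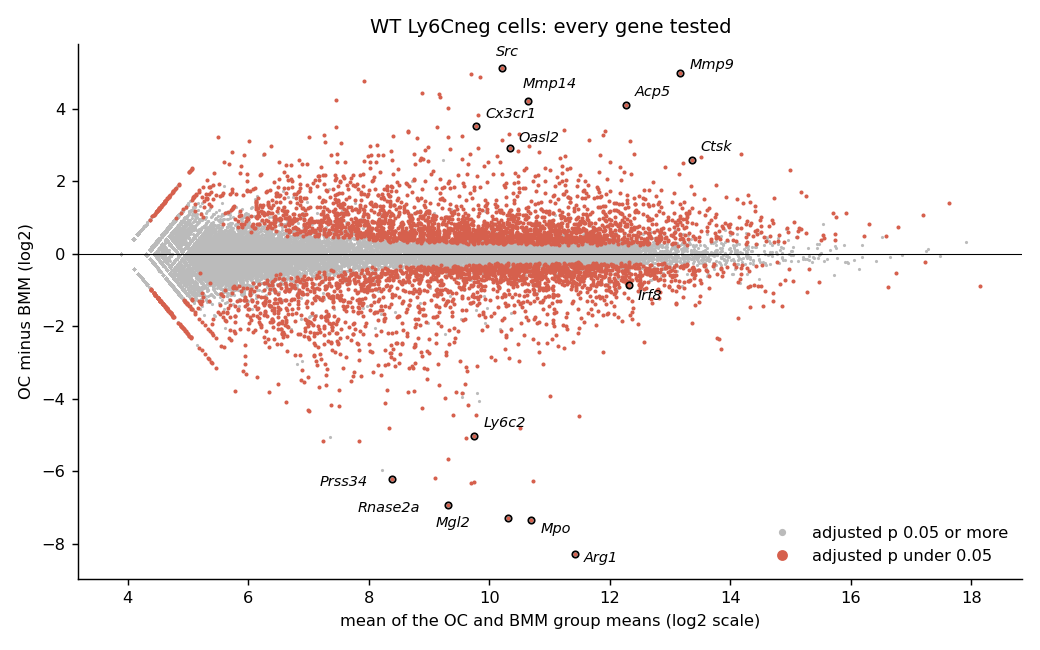
Every gene tested in WT Ly6Cneg cells, with the mean of the OC and BMM levels on the horizontal axis and the OC minus BMM difference on the vertical axis (both log2); red points have an adjusted p under 0.05 and the black rings mark named genes. Among the ringed genes Src and Mmp9 lie highest, with differences of 5.11 and 4.99, and Arg1 lowest, with -8.29. The slanted lines of points at the left are genes with few reads, and 147 of the red points had 0 reads in both libraries of 1 group.

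Receptors and their close partners rose in part. Of 10 listed genes 5 were higher and 0 lower, with a median difference of 0.51, against -0.03 for all genes. Tnfrsf11a, the RANKL receptor, had levels of 12.33 and 12.30 in OC and 10.67 and 10.87 in BMM, and rose by 1.54 ± 0.17 log2 units (adjusted p = 2.3e-08). Oscar, an immunoreceptor that costimulates the lineage, had levels of 9.33 and 9.71 in OC and 6.90 and 6.71 in BMM and rose by 2.72 ± 0.35. The tyrosine kinase gene Syk (0.76 ± 0.13), the receptor gene Trem2 (0.73 ± 0.14) and Sirpb1a (0.67 ± 0.15) rose less. Csf1r, the MCSF receptor, was at 16.001 and 16.026 in OC and 15.68 and 15.86 in BMM, a difference of 0.24 ± 0.11 that did not pass (adjusted p = 0.16).

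Tnfrsf11a rose in every culture, by 1.54 ± 0.17 in WT Ly6Cneg cells, 1.21 ± 0.14 in labelled cKO Ly6Cneg cells, 1.57 ± 0.14 in WT Ly6Chi cells and 1.14 ± 0.14 in WT Ly6Cint cells. None of the 3 differences between those changes passed, the largest being 0.40 ± 0.22 against WT Ly6Cint (adjusted p = 0.28), which does not show that the changes were alike. That difference gained a call under 3 of 18 other settings (adjusted p = 0.037 with the WT libraries alone), and the one against labelled cKO Ly6Cneg under 1 of 17, after quantile normalisation (0.64, adjusted p = 0.020). Oscar gained less in WT Ly6Cneg cells than in WT Ly6Chi cells, where its rise was 6.53 ± 0.29 (difference of changes -3.82 ± 0.45, adjusted p = 3.9e-07). Each of the 3 comparisons of changes uses the same 4 WT Ly6Cneg libraries, so they are not independent of each other.

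Transcription factors of the lineage rose in most cases. Of 12 listed activators 9 were higher and 1 lower (median difference 1.0). Nfkb2, the precursor of the NF-kappaB subunit p52 that RANK signalling releases, had levels of 13.38 and 13.36 in OC and 10.98 and 10.97 in BMM, a rise of 2.39 ± 0.07. Its partner Relb rose by 1.97 ± 0.15, Prdm1, a repressor of the genes that restrain the lineage, by 2.47 ± 0.20, and Fos by 1.90 ± 0.21. Nfatc1 had levels of 12.46 and 12.51 in OC and 11.16 and 11.25 in BMM and rose by 1.28 ± 0.17 (adjusted p = 1.9e-06). Myc, a growth regulator, was the member that fell, by 0.66 ± 0.11.

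These changes differed between cultures. Against WT Ly6Chi cells 6 of the 12 were more positive and 4 more negative, against WT Ly6Cint cells 7 and 4, and against labelled cKO Ly6Cneg cells 0 and 10, with a median difference of changes of -1.06. Over all genes, in the same order, the shares were 9.90% and 9.75%, 9.22% and 8.47%, and 8.71% and 8.58%. The rise of Nfkb2 was larger than in WT Ly6Chi cells (1.21 ± 0.06, difference of changes 1.18 ± 0.09) and in WT Ly6Cint cells (0.51 ± 0.06, difference 1.88 ± 0.09). Relb showed the same order, with differences of changes of 1.62 ± 0.19 and 2.20 ± 0.19 (adjusted p = 1.2e-08 and 9.7e-12). The rise of Nfatc1 was smaller than in each other culture, by 1.54 ± 0.23 against labelled cKO Ly6Cneg cells, 1.22 ± 0.23 against WT Ly6Chi cells and 1.20 ± 0.23 against WT Ly6Cint cells. Fosl2, a Fos family member, rose by 0.87 ± 0.14 in WT Ly6Cneg cells and by 3.12 ± 0.11 in WT Ly6Chi cells, a difference of changes of -2.25 ± 0.18. Myc rose by 2.05 ± 0.09 in WT Ly6Chi cells, the opposite direction (difference of changes -2.71 ± 0.14).

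Repressors of the programme fell in part. Irf8 was at 11.93 and 11.85 in OC and 12.78 and 12.73 in BMM, a difference of -0.86 ± 0.10 (adjusted p = 1.2e-08), and it fell by 3.45 ± 0.08 in WT Ly6Chi cells and 2.63 ± 0.08 in WT Ly6Cint cells. The difference of changes was 2.59 ± 0.13 against WT Ly6Chi and 1.76 ± 0.13 against WT Ly6Cint, and day 4 Irf8 levels were 10.04 to 10.20 and 10.73 to 10.80 in those OC libraries, below those of WT Ly6Cneg OC. Altogether 3 of 6 listed repressors fell and 0 rose; the other 2 besides Irf8 were Rbpj, the Notch pathway transcription factor (-0.76 ± 0.15), and the immediate early gene Nr4a1 (-0.72 ± 0.16).

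**Figure D2:**
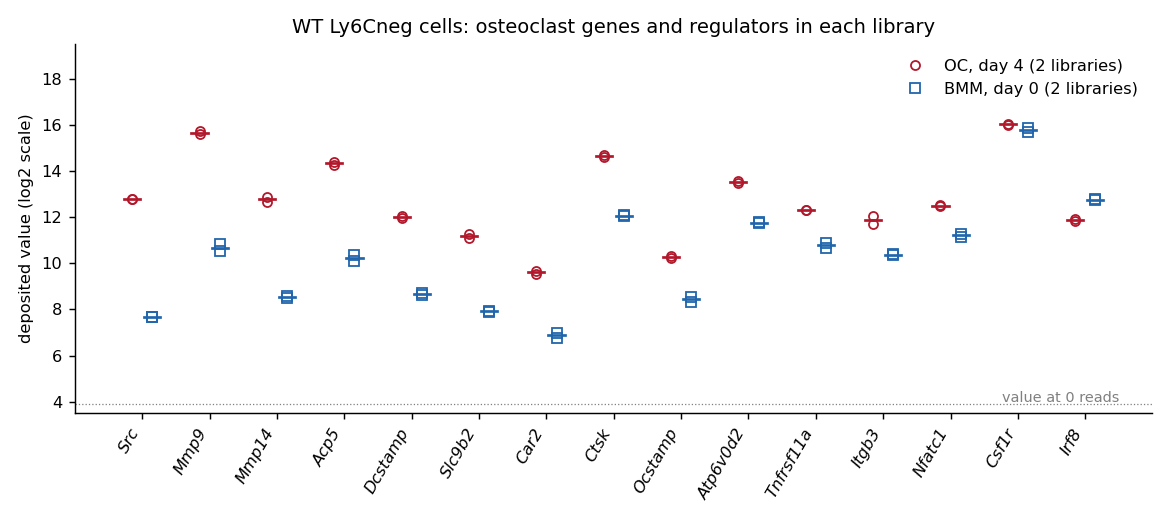
Levels of 15 osteoclast genes and regulators in each WT Ly6Cneg library on the deposited log2 scale, with OC as red circles to the left of BMM as blue squares, and the bar as the mean of 2 libraries. Src, Mmp9 and Acp5 show the widest gaps, with differences of 5.11, 4.99 and 4.11, whereas the groups lie close together for Csf1r, at 0.24, and Irf8 is lower in OC.

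Genes of cell fusion rose, 5 of 7 with 0 lower and a median difference of 1.02. Dcstamp, the transmembrane protein needed for fusion of osteoclast precursors, had levels of 11.94 and 12.04 in OC and 8.72 and 8.64 in BMM, a rise of 3.31 ± 0.20 (adjusted p = 3.2e-13). Its relative Ocstamp was at 10.21 and 10.31 in OC and 8.55 and 8.34 in BMM, a rise of 1.81 ± 0.26. The fusion-linked pump subunit gene Atp6v0d2 rose by 1.76 ± 0.24 and Sirpa, the receptor for Cd47, by 1.02 ± 0.09. The rise of Dcstamp was smaller than in WT Ly6Chi cells (6.70 ± 0.16, difference of changes -3.39 ± 0.25) and in WT Ly6Cint cells (5.71 ± 0.16, difference -2.40 ± 0.25), but not called different from labelled cKO Ly6Cneg cells (2.75 ± 0.16, adjusted p = 0.14). Ocstamp differed from each other culture, by -1.96 ± 0.33 in the comparison with labelled cKO Ly6Cneg cells and by -4.12 ± 0.33 and -4.42 ± 0.33 in those with WT Ly6Chi and WT Ly6Cint cells.

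The genes of bone resorption rose as a group, 9 of 11 with 1 lower and a median difference of 1.44. Acp5, the tartrate-resistant acid phosphatase used to stain osteoclasts, at chr9:22126727-22135711, had levels of 14.25 and 14.40 in OC and 10.34 and 10.10 in BMM and rose by 4.11 ± 0.47. Ctsk, cathepsin K, the main collagen-degrading enzyme of osteoclasts, at chr3:95499256-95509362, had levels of 14.59 and 14.71 in OC and 12.08 and 12.06 in BMM and rose by 2.58 ± 0.48 (adjusted p = 0.00036). The membrane protease gene Mmp14 rose by 4.22 ± 0.31, Car2, the carbonic anhydrase that supplies protons, by 2.74 ± 0.29 and Clcn7, the chloride transporter beside the pump, by 1.44 ± 0.09. Plekhm1, a lysosome trafficking gene, was lower (-0.46 ± 0.14).

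The level of Ctsk at day 4 set the cultures apart. It was 14.59 and 14.71 in WT Ly6Cneg OC, against 17.30 to 17.57 in labelled cKO Ly6Cneg OC, 18.56 to 18.62 in WT Ly6Chi OC and 17.76 to 17.90 in WT Ly6Cint OC, with no overlap. The rise of Ctsk was 4.66 ± 0.39 in labelled cKO Ly6Cneg cells, 7.38 ± 0.39 in WT Ly6Chi cells and 7.76 ± 0.39 in WT Ly6Cint cells. The difference of changes was -4.80 ± 0.62 against WT Ly6Chi (adjusted p = 1.7e-06) and -5.18 ± 0.62 against WT Ly6Cint (adjusted p = 6.0e-07). Against labelled cKO Ly6Cneg it was -2.08 ± 0.62 (adjusted p = 0.022), a call that was lost under 6 of 17 other settings, with adjusted p up to 0.179; Ctsk levels in those BMM libraries spread from 11.79 to 14.07. Acp5 rose by 7.38 ± 0.38 in WT Ly6Chi cells (difference of changes -3.27 ± 0.60, adjusted p = 0.00019), and its difference from labelled cKO Ly6Cneg, -0.92 ± 0.60, was not called (adjusted p = 0.33).

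The rise of Mmp9 was not called different from that in any other culture, with differences of changes of 0.34 ± 0.46 against labelled cKO Ly6Cneg, -1.06 ± 0.46 against WT Ly6Chi and 0.69 ± 0.46 against WT Ly6Cint (adjusted p = 0.67, 0.13 and 0.43). It gained a call against each WT culture under 3 of 18 other settings; with the WT libraries alone, the adjusted p was 0.00093 against WT Ly6Chi and 0.021 against WT Ly6Cint. Its level was lower in WT Ly6Cneg OC, 15.59 and 15.74, than in the OC of the other cultures, 18.14 to 18.96, and also lower in WT Ly6Cneg BMM, 10.83 and 10.52, than in the other BMM, 12.68 to 14.79. Mmp14 rose more than in WT Ly6Chi cells (2.51 ± 0.25, difference of changes 1.71 ± 0.40) and in WT Ly6Cint cells (0.83 ± 0.25, difference 3.40 ± 0.40).

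Podosome and integrin genes rose in part. Of 10 listed genes 6 were higher and 0 lower (median difference 1.10). Besides Src, Sh3pxd2a, a podosome scaffold, rose by 1.82 ± 0.20, the actin-binding gene Cttn by 1.66 ± 0.21 and Itgb3, the beta-3 subunit of the osteoclast vitronectin receptor, by 1.52 ± 0.29, with levels of 11.72 and 12.07 in OC and 10.39 and 10.36 in BMM. Itgb3 rose by 6.38 ± 0.24 in WT Ly6Chi cells (difference of changes -4.87 ± 0.37) and by 4.68 ± 0.24 in labelled cKO Ly6Cneg cells (difference of changes -3.17 ± 0.37). The rise of Src was not called different from any of them (differences of changes -0.34 ± 0.41 against WT Ly6Chi, 0.58 ± 0.41 against WT Ly6Cint and 0.62 ± 0.41 against labelled cKO Ly6Cneg).

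All 7 late osteoclast markers with a value were higher in WT Ly6Cneg OC than in BMM, with a median difference of 1.76. Slc9b2, a sodium-proton exchanger of mature osteoclasts, rose by 3.26 ± 0.33, Calcr, the calcitonin receptor, by 1.90 ± 0.30, Siglec15, a sialic acid receptor that partners with the adaptor of the lineage, by 1.88 ± 0.27, and Ckb, the brain-type creatine kinase, by 1.40 ± 0.18. Calcr levels were 7.86 and 7.99 in OC and 6.33 and 5.72 in BMM. The same list had median differences of 3.88 in labelled cKO Ly6Cneg cells, 5.58 in WT Ly6Chi cells and 5.70 in WT Ly6Cint cells. In all 7 genes the rise was smaller than in WT Ly6Chi and than in WT Ly6Cint cells, at a background of 9.75% and 8.47% of genes called in that direction, and in 6 it was smaller than in labelled cKO Ly6Cneg cells (background 8.58%). Atp6v0d2 and Itgb3 are on this list and on those of fusion and podosomes.

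The proton pump rose modestly. Of 15 V-ATPase subunit genes 9 were higher and 1 lower (median difference 0.58), against a median of 1.71 in WT Ly6Chi cells, and the change of 11 was more negative than in WT Ly6Chi cells and that of 1, Atp6v0a1, more positive. The backgrounds were 9.75% of genes more negative and 9.90% more positive. The catalytic subunit gene Atp6v1a rose by 0.94 ± 0.09, Atp6v1d by 1.11 ± 0.12, Atp6ap2 by 0.95 ± 0.10 and Atp6v1c1 by 0.83 ± 0.09. Atp6v0a1, an isoform of the membrane subunit found in many other tissues, was lower by 0.37 ± 0.11 log2 units. Lysosomal enzyme genes were mixed, with 6 of 16 higher, 3 lower and a median of 0.07. The cathepsin genes Ctsh (-1.37 ± 0.12) and Ctsc (-1.19 ± 0.13) were lower. The E-box CACGTG, searched on both strands, was in 9 of the 23 promoter windows of V-ATPase and lysosomal genes, 39.1%, against 8.09% of all genes.

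Signals from osteoclasts to other bone cells rose at 5 of 10 listed genes, with 0 lower and a median difference of 0.87. Cxcl16, a membrane-bound chemokine, had levels of 12.97 and 12.91 in OC and 9.47 and 9.59 in BMM, a rise of 3.41 ± 0.14. Pdgfb, a growth factor for vessel-associated precursors, rose by 3.14 ± 0.11, Sema4d, an inhibitor of osteoblasts, by 2.66 ± 0.10 and the cytokine gene Lif by 1.57 ± 0.21. Cxcl16 fell in WT Ly6Chi cells (-1.03 ± 0.11) and in WT Ly6Cint cells (-1.12 ± 0.11), with differences of changes of 4.44 ± 0.18 and 4.53 ± 0.18. The kinase gene Sphk1 showed the opposite contrast: it was at 7.73 and 7.79 in OC and 7.35 and 7.62 in BMM of WT Ly6Cneg cells, not called (adjusted p = 0.59), and rose by 4.82 ± 0.17 in WT Ly6Chi cells (difference of changes -4.55 ± 0.28).

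**Figure D3:**
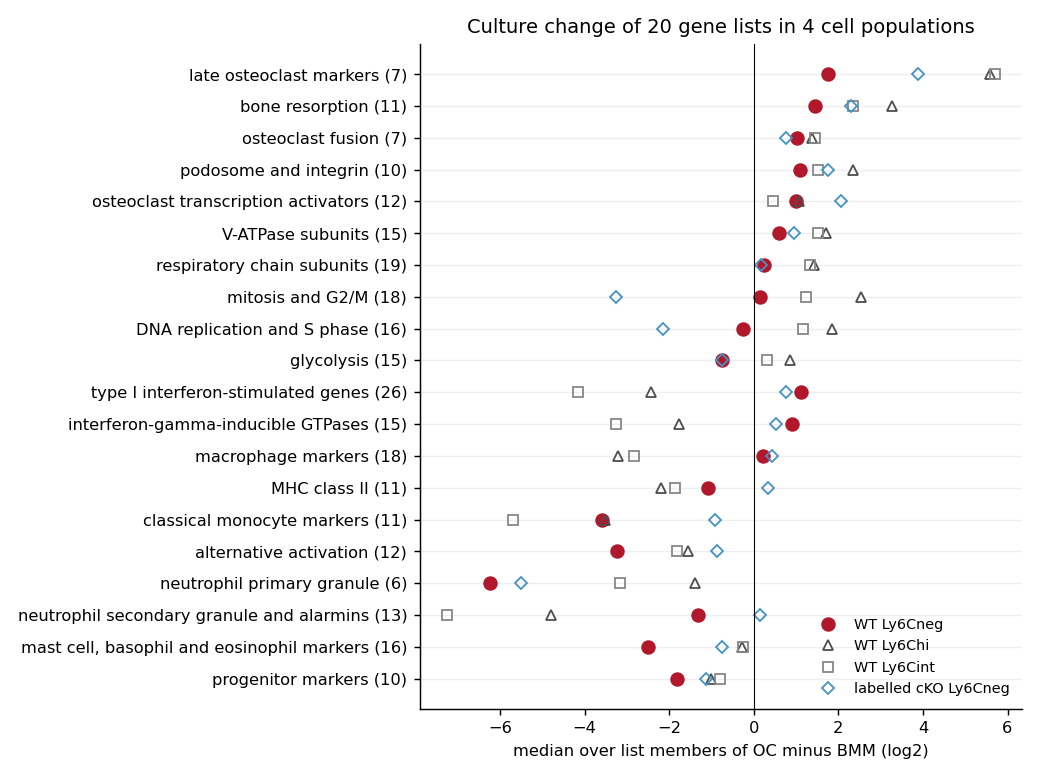
Median OC minus BMM difference (log2) over the members of 20 gene lists, with the number of members tested in parentheses; red dots are WT Ly6Cneg cells, open symbols the other cultures. Late osteoclast markers stand at 1.76 in WT Ly6Cneg cells against 3.88 to 5.70 elsewhere, and type I interferon-stimulated genes at 1.11 against -2.43 in WT Ly6Chi and -4.17 in WT Ly6Cint cells.

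Interferon-inducible genes rose in WT Ly6Cneg cells. Of 26 listed type I interferon-stimulated genes 19 were higher and 0 lower, with a median difference of 1.11. Oasl2, an oligoadenylate synthetase-like protein, had levels of 11.78 and 11.82 in OC and 8.58 and 9.17 in BMM, a rise of 2.92 ± 0.32 (adjusted p = 2.3e-07). Oas2, which makes the messenger that activates RNase L, rose by 2.83 ± 0.19, Rtp4 by 2.62 ± 0.22 and Irf7, the transcription factor that amplifies interferon production, by 2.42 ± 0.25, with Irf7 levels of 11.20 and 11.05 in OC and 8.57 and 8.84 in BMM. Ifit3, whose promoter is printed above, was at 8.56 and 9.12 in OC and 6.80 and 7.14 in BMM, a rise of 1.88 ± 0.33, and Isg15 was at 9.16 and 9.28 in OC and 7.61 and 7.85 in BMM. The rise of Rsad2 was small, 0.88 ± 0.28, with an adjusted p of 0.037. Ifi44l, on the list, had 0 reads in all 4 libraries, and the antiviral GTPase gene Mx1 was at 8.23 and 8.20 in OC and 8.69 in both BMM, a difference that was not called (-0.47 ± 0.24).

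The direction was opposite in the other WT cultures. In WT Ly6Chi cells 0 of the 26 genes were higher and 25 lower (median -2.43), and in WT Ly6Cint cells 0 were higher and 25 lower (median -4.17), where 20.4% and 15.4% of all genes were lower and the all-gene medians were -0.28 and -0.06. In labelled cKO Ly6Cneg cells 19 were higher and 0 lower (median 0.75), where 14.5% of all genes were higher and the all-gene median was -0.36. The change of 25 of the 26 genes was more positive in WT Ly6Cneg cells than in WT Ly6Chi cells and the same number was in the comparison with WT Ly6Cint cells (backgrounds 9.90% and 9.22%), against 8 in the comparison with labelled cKO Ly6Cneg cells (background 8.71%). Oasl2 gave differences of changes of 6.01 ± 0.42 against WT Ly6Chi, 7.07 ± 0.42 against WT Ly6Cint and 1.34 ± 0.42 against labelled cKO Ly6Cneg (adjusted p = 3.9e-11, 2.4e-12 and 0.029).

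The levels show where the cultures parted. Oasl2 in BMM was at 8.58 and 9.17 in WT Ly6Cneg cells, 7.87 to 9.06 in labelled cKO Ly6Cneg cells, 11.55 to 12.22 in WT Ly6Chi cells and 14.68 to 14.83 in WT Ly6Cint cells. At day 4 it was 11.78 and 11.82 in WT Ly6Cneg OC, 9.79 to 10.36 in labelled cKO Ly6Cneg OC, 8.70 to 9.07 in WT Ly6Chi OC and 10.39 to 10.92 in WT Ly6Cint OC. WT Ly6Cneg cells thus had low Oasl2 at day 0 and the highest Oasl2 of these OC groups at day 4. Ifit3 in OC was at 8.56 and 9.12 in WT Ly6Cneg, 8.27 to 8.97 in labelled cKO Ly6Cneg, 6.55 to 6.96 in WT Ly6Chi and 7.98 to 8.08 in WT Ly6Cint cells, and the range of the labelled cKO group overlapped that of WT Ly6Cneg.

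Interferon-gamma-inducible GTPases, which attack the vacuoles of intracellular pathogens, moved in the same way. Of 15 listed genes 10 were higher and 0 lower in WT Ly6Cneg OC (median 0.91), while 0 were higher and 12 lower in WT Ly6Chi OC and 0 higher and 14 lower in WT Ly6Cint OC. The shares of all genes lower in WT Ly6Chi and WT Ly6Cint OC were 20.4% and 15.4%. Gbp9 rose by 2.61 ± 0.17, Gbp8 by 2.04 ± 0.39, Gbp7 by 1.78 ± 0.14 and Gbp4 by 1.12 ± 0.28. Gbp2 was at 9.30 and 9.25 in OC and 8.37 and 8.46 in BMM. Gvin1, Tgtp1 and Tgtp2 have near-identical copies and are uncertain; Gvin1 levels were 10.79 and 7.17 in the OC replicates.

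**Figure D4:**
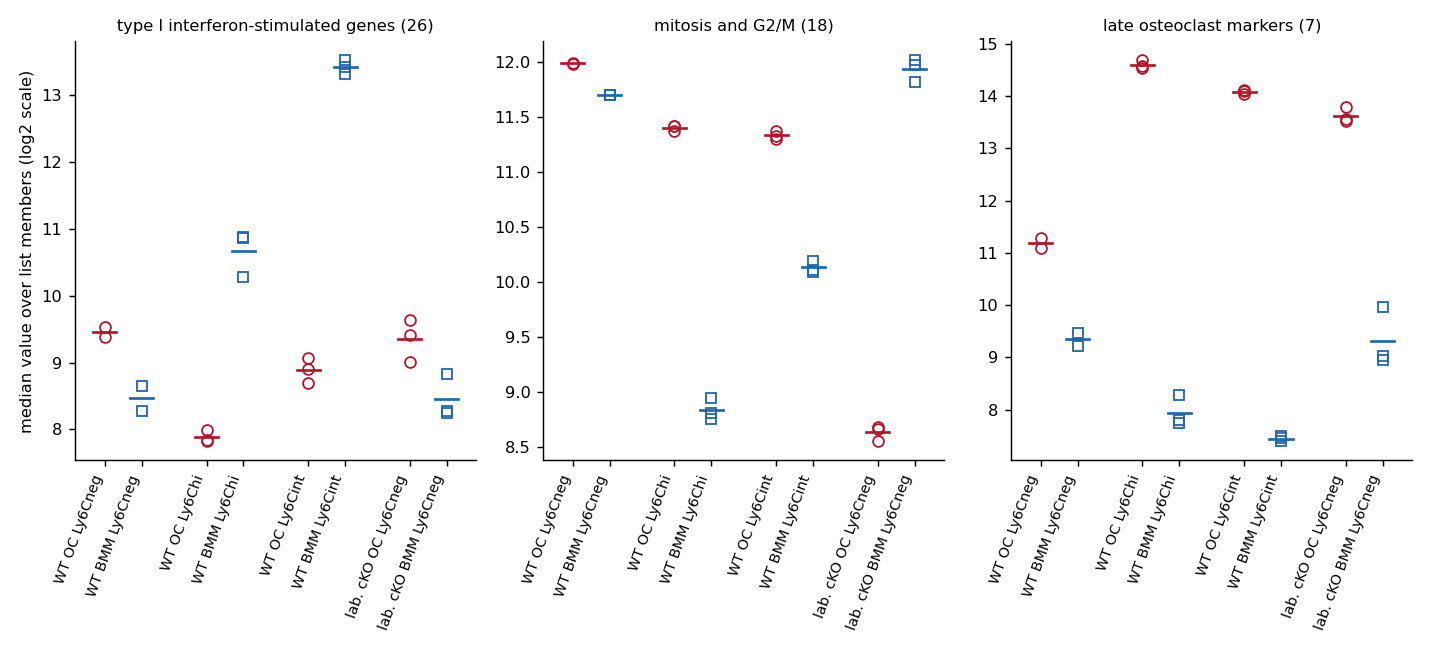
Median level over list members (log2 scale) in each library, with OC as red circles left of BMM as blue squares for each cell population, the bar as the group mean and the member number in parentheses. Interferon-stimulated genes are higher in OC than in BMM in both Ly6Cneg groups and lower in OC in the Ly6Chi and Ly6Cint groups, mitotic genes differ little in WT Ly6Cneg cells, and late osteoclast markers reach 11.09 and 11.28 in WT Ly6Cneg OC.

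Classical monocyte markers fell. Of 11 classical monocyte markers 9 were lower and 1 higher (median -3.59). F13a1 levels were 7.62 and 7.57 in OC and 14.01 and 13.69 in BMM. Ly6c2 levels were 7.25 and 7.24 in OC and 12.48 and 12.03 in BMM, a difference of -5.01 ± 0.24, and Ccr2, the receptor for monocyte recruitment, differed by -4.47 ± 0.16 and the acute-phase gene Hp by -3.59 ± 0.29. Chil3, a chitinase-like protein of monocytes, differed by -3.93 ± 0.33. The member that rose was Cd14, the lipopolysaccharide co-receptor, by 1.15 ± 0.12. In WT Ly6Chi cells 9 of the 11 were lower and 1 higher, with a median of -3.51, where 20.4% of all genes were lower.

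Cx3cr1, the fractalkine receptor of non-classical monocytes and macrophages, at chr9:119901616-120069879, gave the largest difference of changes from WT Ly6Chi cells among the named genes. Its level was 11.63 and 11.48 in WT Ly6Cneg OC, against 8.03 and 8.01 in BMM, a rise of 3.53 ± 0.10. It fell by 3.95 ± 0.08 in WT Ly6Chi cells, where levels were 8.13 to 8.22 in OC and 12.06 to 12.16 in BMM. The difference of changes was 7.48 ± 0.13 against WT Ly6Chi, 6.33 ± 0.13 against WT Ly6Cint and 3.80 ± 0.13 against labelled cKO Ly6Cneg, where BMM levels were 12.64 to 12.81. WT Ly6Cint BMM levels were 12.13 to 12.29. Among these BMM groups the low Cx3cr1 level was thus in WT Ly6Cneg cells, and among the OC groups the lowest was in WT Ly6Chi cells. The non-classical list as a whole had 2 of 12 members higher (Cx3cr1 and Adgre4, an adhesion receptor, 2.74 ± 0.17), 5 lower and a median of 0.01.

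Macrophage markers split. Of 18 listed 7 were higher and 5 lower (median 0.21), against 1 higher and 16 lower in WT Ly6Chi cells (median -3.21) and in WT Ly6Cint cells 1 higher and 16 lower. The shares of all genes lower there were 20.4% and 15.4%, with 3 libraries a group against 2 in WT Ly6Cneg cells. Axl, a receptor for apoptotic cells, had levels of 12.29 in both OC and 10.18 and 10.33 in BMM, a rise of 2.03 ± 0.12. Mrc1, the mannose receptor, differed by -2.62 ± 0.19, the haemoglobin receptor Cd163 by -3.36 ± 0.20 and Fcgr1, the high-affinity IgG receptor, by -1.69 ± 0.14. The change of 13 of the 18 genes was more positive than in WT Ly6Chi cells (background 9.90%), among them Axl by 5.39 ± 0.16 and the lipid carrier Apoe by 4.02 ± 0.20. Pan-myeloid genes remained high: Lyz2, lysozyme, was at 17.73 in both OC and 16.66 and 16.69 in BMM, and 5 of 10 members rose and 1 fell.

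MHC class II genes fell, 10 of 11 with 0 higher and a median of -1.09. H2-Ab1, a class II beta chain, had levels of 14.13 in both OC and 15.59 and 15.57 in BMM, a difference of -1.45 ± 0.15. H2-Ob differed by -2.69 ± 0.40, H2-DMb2 by -1.77 ± 0.18, H2-DMa by -1.32 ± 0.11 and Ciita, the class II master activator, by -1.09 ± 0.18. The falls were shallower than in WT Ly6Chi cells, where the median was -2.20, with 6 of the 11 genes called as a more positive change and 1, H2-DMb2, as a more negative one (-0.66 ± 0.23). The backgrounds in that comparison were 9.90% of genes more positive and 9.75% more negative. In labelled cKO Ly6Cneg cells 5 rose and 2 fell, where 14.5% of all genes were higher and 28% lower, and the change of H2-Ab1 differed by -2.36 ± 0.19. Dendritic cell markers were lower at 8 of 13 and higher at 2, among them Cd209a (-4.12 ± 0.31) and Flt3 (-2.47 ± 0.28) lower and Itgax, the CD11c gene, higher (1.36 ± 0.12).

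Genes of alternative macrophage activation fell, 8 of 12 with 0 higher and a median of -3.24. After Arg1 and Mgl2 came Clec10a, a related lectin (-4.18 ± 0.14), and Retnla, a secreted protein induced by interleukin-4 (-4.16 ± 0.40). The transcription factor gene Irf4 was at 8.01 and 8.08 in OC and 11.21 and 11.14 in BMM. Arg1 was at 15.50 and 15.65 in WT Ly6Cneg BMM, against 11.56 to 12.06 in labelled cKO Ly6Cneg BMM, 7.68 to 8.47 in WT Ly6Chi BMM and 6.82 to 7.23 in WT Ly6Cint BMM. In OC all 4 populations had Arg1 levels of 6.94 to 7.76, so the populations stood apart at day 0 and close together at day 4.

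Among 21 chemokine genes 7 were higher and 8 lower. Ccl7 and Ccl2, ligands of Ccr2, differed by -4.79 ± 0.28 and -4.44 ± 0.20, with Ccl2 levels of 7.03 and 7.34 in OC and 11.67 and 11.58 in BMM. Ccl9, a chemokine that osteoclasts secrete, rose by 1.54 ± 0.10, and Ccl5, an interferon-inducible chemokine, by 1.63 ± 0.22. Of 18 cytokine and interleukin-1 system genes 4 were higher and 4 lower: Il1rn, the interleukin-1 receptor antagonist, rose by 3.15 ± 0.15, and the receptor genes Il1rl1 (-2.10 ± 0.21) and Il1r2 (-2.06 ± 0.23) were lower. Tnf was at 9.05 and 9.12 in OC and 9.06 and 9.08 in BMM and was not called.

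Markers of several other marrow cells were lower in WT Ly6Cneg OC than in BMM. All 6 neutrophil primary granule genes with a value were lower in OC (median -6.24), and their summed level was 9.12 and 8.91 in OC, against 15.52 and 15.23 in BMM. Mpo in BMM was at 14.50 and 14.23 in WT Ly6Cneg and 13.25 to 13.66 in labelled cKO Ly6Cneg cells, against 7.55 to 7.82 in WT Ly6Chi and 8.17 to 8.71 in WT Ly6Cint cells. Of 13 secondary granule genes and alarmins 10 were lower and 0 higher (median -1.31, summed level 12.97 and 13.20 in OC and 15.11 and 14.99 in BMM). In WT Ly6Chi and WT Ly6Cint cells all 13 were lower, with medians of -4.80 and -7.25, where 20.4% and 15.4% of all genes were lower. Ltf, lactoferrin, was at 9.93 and 10.57 in WT Ly6Cneg OC, against 11.36 and 11.28 in BMM. Its difference was not called (-1.07 ± 0.36, adjusted p = 0.059). In BMM of WT Ly6Chi and WT Ly6Cint cells Ltf was higher, at 14.31 to 14.66 and 16.99 to 17.14.

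Of 16 mast cell, basophil and eosinophil markers 11 were lower and 0 higher (median -2.51; summed level 10.31 and 10.42 in OC, 13.84 and 13.77 in BMM). Prss34 levels were 5.17 and 5.41 in OC and 11.65 and 11.34 in BMM, and Mcpt8, a basophil protease, differed by -4.31 ± 0.36. The defining genes Epx, the eosinophil peroxidase, and Tpsb2, a mast cell tryptase, had 0 reads in both OC libraries and BMM levels of 5.99 and 5.97 and of 5.62 and 4.72. Of 10 progenitor markers 8 were lower and 0 higher (median -1.81), among them Myb (-3.76 ± 0.45), Kit (-2.75 ± 0.17), Flt3 and Cd34 (-2.10 ± 0.16). Their summed level was 10.60 and 10.68 in OC and 12.75 and 12.67 in BMM.

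Of 17 B and plasma cell markers 8 were lower and 0 higher, with a summed level of 12.50 and 12.47 in OC and 13.99 and 13.95 in BMM. They included immunoglobulin constant genes (Ighg2b -4.33 ± 0.62, Ighm -2.94 ± 0.25, Igkc -2.77 ± 0.46 and Igha -2.56 ± 0.66), whose copies make their reads uncertain, and the call of Igha was lost under 3 of 12 other settings. Of 14 T and NK cell markers 2 were higher and 1 lower, with a summed level of 13.16 and 13.18 in OC and 11.90 and 11.94 in BMM; those higher were Cd4 (3.06 ± 0.19) and Il7r (1.41 ± 0.13) and the lower one Nkg7 (-2.83 ± 0.47), and Cd3e was at 5.54 and 5.67 in OC and 5.93 and 5.85 in BMM. Of 9 erythroid and megakaryocyte markers 1 was higher and 3 lower, with a summed level of 12.77 and 12.88 in OC and 15.04 and 15.18 in BMM; Gp1ba was the higher one (0.58 ± 0.19), and the platelet chemokine gene Pf4 (-2.50 ± 0.28), Itga2b (-1.85 ± 0.29) and Tfrc were lower. Of 17 stromal, osteoblast and endothelial markers 1 was higher and 3 lower, with a summed level of 12.05 and 11.81 in OC and 11.95 and 11.84 in BMM; Kdr was higher (2.28 ± 0.16) and Pecam1 (-3.10 ± 0.21), Cdh5 and Acta2 lower. Over all genes tested 6.55% were higher and 5.69% lower in OC, so a count of 1 member does not set a list of this size apart. What part these other cells have in the changes of the macrophage, Arg1 and cell cycle genes was not tested.

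**Figure D5:**
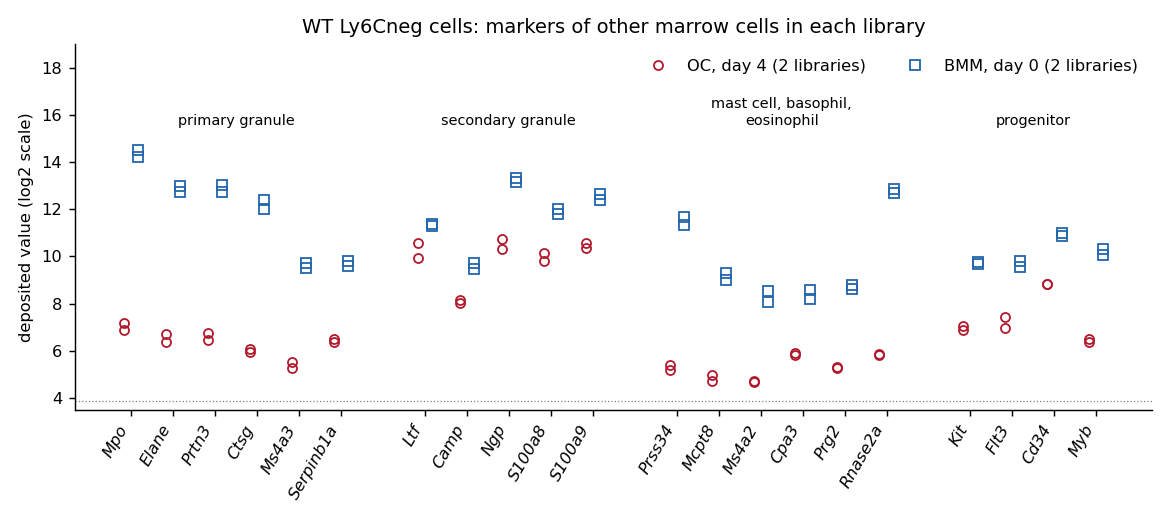
Levels of markers of granulocyte precursors, neutrophils, mast cells, basophils, eosinophils and progenitors in each WT Ly6Cneg library (deposited log2 scale; OC as red circles left of BMM as blue squares, 2 libraries each; dotted line, 0 reads). Primary granule genes such as Mpo fell to 7.17 and 6.89 in OC, against 14.50 and 14.23 in BMM. Of 13 listed secondary granule genes and alarmins, 10 were called lower in OC. Ltf was not called, at 9.93 and 10.57 in OC and 11.36 and 11.28 in BMM.

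Genes of proliferation had smaller median differences between OC and BMM in WT Ly6Cneg cells than in WT Ly6Chi and labelled cKO Ly6Cneg cells. Of 18 mitotic genes 6 were higher and 1 lower (median 0.13) and of 16 replication genes 0 were higher and 7 lower (median -0.26). The all-gene shares were 6.55% higher and 5.69% lower. Top2a, the topoisomerase of dividing cells, was at 13.87 and 13.97 in OC and 13.89 and 13.91 in BMM, a difference of 0.02 ± 0.13. The mitotic cyclin gene Ccnb2 rose by 0.54 ± 0.10 and Cenpf, a centromere protein, by 0.78 ± 0.18, whereas Aurkb, a mitotic kinase, was lower by 0.59 ± 0.10 log2 units. The replication genes Cdc45 (-0.91 ± 0.13) and Mcm2 (-0.81 ± 0.13) were lower.

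In WT Ly6Chi cells 18 of the 18 mitotic genes were higher in OC (median 2.53) and in WT Ly6Cint cells 17 were (median 1.24), where 13.7% and 13.1% of all genes were higher, whereas in labelled cKO Ly6Cneg cells all 18 were lower (median -3.26), where 28% of all genes were lower. The change differed from WT Ly6Chi in 18 of 18 genes and from labelled cKO Ly6Cneg in 18 of 18, in opposite directions. Top2a in OC was at 13.87 and 13.97 in WT Ly6Cneg, 9.96 to 10.16 in labelled cKO Ly6Cneg, 12.98 to 13.07 in WT Ly6Chi and 13.02 to 13.19 in WT Ly6Cint cells. In BMM it was at 13.89 and 13.91 in WT Ly6Cneg, 13.32 to 13.89 in labelled cKO Ly6Cneg, 10.08 to 10.26 in WT Ly6Chi and 12.21 to 12.58 in WT Ly6Cint cells. Birc5, an inhibitor of apoptosis needed for cell division, gave the largest difference from labelled cKO Ly6Cneg among the named genes, 4.41 ± 0.20 (adjusted p = 6.1e-18). The E2F core TTTNGCGC, searched on both strands, was in 5 of the 13 promoter windows of replication genes, 38.5%, against 1.57% of all genes.

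Metabolic lists moved in different directions. Respiratory chain subunit genes were higher at 6 of 19 with 0 lower (median 0.25), against 19 of 19 higher in WT Ly6Chi (median 1.41) and in WT Ly6Cint cells (median 1.34) and 6 higher with 1 lower in labelled cKO Ly6Cneg cells (median 0.16). Of all genes 13.7%, 13.1% and 14.5% were higher in those other cultures, in the same order. Ppargc1b, the coactivator that drives mitochondrial formation in osteoclasts, rose by 1.12 ± 0.22, less than in WT Ly6Chi cells (difference of changes -1.94 ± 0.28). Glycolysis genes fell at 12 of 15 with 0 higher (median -0.75), while 4 rose and 10 fell in labelled cKO Ly6Cneg cells (median -0.75) and 11 rose and 3 fell in WT Ly6Chi cells. The share of all genes lower was 28% in labelled cKO Ly6Cneg cells, where the all-gene median was -0.36, and 20.4% in WT Ly6Chi cells. Pfkl, the liver-type phosphofructokinase, differed by -1.38 ± 0.11, the hexokinase gene Hk2 by -1.22 ± 0.11 and the glucose transporter Slc2a1 by -1.02 ± 0.14; Gapdh also passed (-1.06 ± 0.32) but lost its call under 4 of 12 other settings. Genes of sterol synthesis fell at 12 of 19 with 0 higher (median -0.50), and of 9 cholesterol efflux genes 5 were higher and 1 lower. Among them Abca1 rose by 2.97 ± 0.24, with levels of 12.11 and 12.20 in OC and 9.11 and 9.25 in BMM.

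Tfrc, the transferrin receptor, was at 12.54 and 12.67 in WT Ly6Cneg OC and 14.87 and 15.01 in BMM, a difference of -2.33 ± 0.09. It rose in every other culture, by 2.16 ± 0.07 in labelled cKO Ly6Cneg, 2.93 ± 0.07 in WT Ly6Chi and 2.17 ± 0.07 in WT Ly6Cint cells, with differences of changes of -4.49 ± 0.11, -5.26 ± 0.11 and -4.50 ± 0.11. Hmox1, which degrades haem, differed by -2.36 ± 0.11, and the metal transporter Slc11a2 rose by 1.19 ± 0.10. Across the 9 genes of iron uptake and storage 3 were higher and 3 lower (median -0.01).

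The named genes of the comparisons between cultures include several from no list. Against WT Ly6Chi cells, the more positive changes by size were Cx3cr1, Oasl2, Ifit3, Adgre4, Irf7, Rtp4, Ms4a7 and Gpr162; Ms4a7, a macrophage membrane protein, was at 13.60 and 13.62 in OC and 10.21 and 10.25 in BMM and fell by 2.17 ± 0.19 in WT Ly6Chi cells. The more negative ones were Arg1, Mpo, Rnase2a, Akr1c18, Mt3, Ablim1, Prg2 and Prss34. Gpr162 rose by 4.32 ± 0.12 here and fell by 1.13 ± 0.10 in WT Ly6Chi cells. Mt3, a metallothionein, rose by 1.91 ± 0.36 here and by 7.42 ± 0.29 in WT Ly6Chi cells. Ablim1, an actin-binding protein, was at 8.60 and 8.61 in OC and 9.63 and 9.73 in BMM (-1.07 ± 0.27), and rose by 4.40 ± 0.22 in WT Ly6Chi and 4.90 ± 0.22 in WT Ly6Cint cells. Scin, an actin-severing protein, rose by 1.02 ± 0.29 here and by 5.96 ± 0.23 in WT Ly6Cint cells (difference of changes -4.94 ± 0.37). Epha2, an ephrin receptor, differed by -3.16 ± 0.19 here and rose by 1.92 ± 0.16 in WT Ly6Cint cells (difference of changes -5.08 ± 0.25). Against labelled cKO Ly6Cneg cells, Fn1, fibronectin, differed by -2.67 ± 0.33 in WT Ly6Cneg and rose by 2.26 ± 0.27 in labelled cKO Ly6Cneg cells, and Nptx1 rose by 4.24 ± 0.17 and was not called in labelled cKO Ly6Cneg cells (0.02 ± 0.14), with differences of changes of -4.92 ± 0.43 and 4.22 ± 0.22.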

How the data were processed

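RNA-seq expression was measured in FACS-sorted mouse bone marrow cells. Per the labels' protocols, total RNA was purified on columns and made into Illumina libraries. Per the submitters' processing notes, which give no roles, the build was mm10 and the tools were HISAT2, DESeq2, deepTools, bcl2fastq 2.17.1 and CASAVA 1.8.4. How reads were counted, with which annotation and strand setting, and how values were transformed is not given in the sources used here. The deposited values are log2-scale normalised expression made by the authors, as their range and the single value of 3.90 for genes without reads show. They were used as deposited, with no pseudocount.

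A gene was tested if at least 3 libraries had it above 4.78, which is percentile 5 among the values of genes with reads; 38873 of 38942 passed. In limma 3.58.1 (R 4.3.3), means of 12 groups were fitted to 34 libraries (22 residual degrees of freedom) with a trended, robust prior, and p-values were adjusted by Benjamini and Hochberg over all genes tested, with a threshold of 0.05. Changes between cultures were compared as contrasts of the same fit. The procedure was tested on simulated data. Total reads per library are unknown, and the number of libraries limits the precision.

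Group labels came from the sample titles; serial numbers in them pair no libraries. The members and the 40 gene lists (515 of 524 symbols tested) were chosen with earlier results of these data known. The named genes were the 15 largest rises and 15 largest falls, and up to 4 called members of each list. Also named were 8 genes in each direction of each comparison of changes. The rises and falls had to be called, without overlap between OC and BMM libraries. Their higher group mean had to be at least 5.28, the median over genes tested. The genes of a comparison of changes had to be called in that comparison, with a mean of at least 5.28 in some group. Genes with placeholder symbols, such as those of predicted genes and clones, were left out of all these rankings. Irf8, Ctsk, Acp5, Nfatc1, Dcstamp, Ocstamp, Mmp9, Arg1, Ly6c2, Csf1r and Tnfrsf11a are given always, and some genes that meet these rules are not reported here; any other gene named was chosen after its values were seen. Azu2, Cma1, Ctgf, Hba-a1, Hba-a2, Hbb-bt, Iglc2 and Nhedc2 were among the listed genes that had no row under those symbols.

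Positions are from GENCODE M21 on mm10 (38928 identifiers matched) and promoters from RefSeq on GRCm38.p6. A summed level is the log2 of the summed linear values of a list. Other filters, normalisations, library sets, priors and sample weights, and leaving out each library, were tried.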

Additional observations from a re-analysis of the deposited data

Results flagged for a closer look

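The change over culture differed between WT Ly6Cneg cells and another culture, by a contrast of changes in limma, for 7638 genes against WT Ly6Chi (19.6% of genes tested), 6875 against WT Ly6Cint (17.7%) and 6721 against labelled cKO Ly6Cneg (17.3%). The 3 comparisons share the 4 WT Ly6Cneg libraries. The values below are differences of the log2 OC minus BMM change, WT Ly6Cneg first, each with an adjusted p under 0.05.

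Against WT Ly6Chi, the differences were 7.48 for Cx3cr1, 6.01 for Oasl2, 5.63 for Ifit3, 2.59 for Irf8 and 1.17 for Csf1r, so these genes fell more in WT Ly6Chi cells or moved the other way. They were -7.38 for Arg1, -6.22 for Mpo, -6.15 for Rnase2a and -1.50 for Ly6c2. For osteoclast genes they were -4.80 for Ctsk, -4.12 for Ocstamp, -3.39 for Dcstamp, -3.27 for Acp5 and -1.22 for Nfatc1.

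Against WT Ly6Cint, the differences were 7.79 for Ifit3, 7.66 for Irf7, 7.56 for Ifit2, 1.98 for Ly6c2, 1.76 for Irf8 and 1.19 for Csf1r. They were -8.26 for Arg1, -6.67 for Rnase2a and -5.97 for Ablim1. For osteoclast genes they were -5.18 for Ctsk, -4.42 for Ocstamp, -3.16 for Acp5, -2.40 for Dcstamp and -1.20 for Nfatc1.

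Against labelled cKO Ly6Cneg, the differences were 4.41 for Birc5, 4.36 for Ube2c and 4.28 for Stmn1, genes of cell division. They were -5.14 for Ear2, -5.11 for Mgl2, -5.07 for Rnase2a, -4.22 for Arg1 and -2.23 for Ly6c2. For osteoclast genes and regulators they were -2.08 for Ctsk, -1.96 for Ocstamp, -1.54 for Nfatc1 and -0.97 for Csf1r. The call of Ctsk was lost under 6 of 17 other settings, with adjusted p up to 0.179.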

How the results depend on the processing

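With sample weights 7570 genes were called in the WT Ly6Cneg culture, 3844 higher and 3726 lower, against 4758, 2547 and 2211. Leaving out each library in turn gave 3386 to 3586 called, 1842 to 2019 higher and 1527 to 1640 lower. The number of genes whose change differed was then 6392 to 7824 against WT Ly6Chi, 5749 to 6638 against WT Ly6Cint and 4650 to 8426 against labelled cKO Ly6Cneg. In a group left with 1 library, that library is assumed to vary like the other groups. Filters, the other normalisations, the library sets and the prior kept these counts within 1.5 times.

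Among values of named genes in the main comparison, counted once per gene and setting, 1903 stayed on the same side of the threshold in the same direction, 48 lost a call and 5 gained one; the cause was not tested. Calls were lost for Uty under 8 of 12 settings, Gp1ba and Sdhb under 5, Gapdh, Hspa1b and Eif2s3y under 4, and Acta2 and Igha under 3. Csf1r gained a call under 2. Among comparisons of changes, counted likewise, 6 values gained a call and 9 lost one against labelled cKO Ly6Cneg, 3 gained one against WT Ly6Chi and 7 against WT Ly6Cint, and 2 values that were never called turned sign: Tnfrsf11a against WT Ly6Chi (-0.03) was 0.0616 after quantile normalisation and ran from -0.1691 to 0.07255 without single libraries, and Mmp9 against labelled cKO Ly6Cneg (0.34) ran from -0.253, without replicate 2 of the labelled cKO Ly6Cneg BMM libraries, to 0.7942, without replicate 3. Ctsk against labelled cKO Ly6Cneg ran from -2.73 to -1.59. No paired analysis was possible because the sample titles give no number that libraries of different groups share. Low values near the level of 0 reads and the unknown depth limit what can be said of weakly expressed genes.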

Other observations

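Mitochondrially encoded transcripts varied widely within groups. The level of mt-Co2 was 7.77 and 11.33 in the WT Ly6Cneg OC libraries and 14.62 and 7.73 in the BMM libraries. The level of mt-Nd3 was 5.78 and 12.49 in OC and 11.93 and 10.50 in BMM. None of the 12 genes of this list was called in the WT Ly6Cneg culture by limma.

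Immediate early genes moved in both directions: Fos (1.90 ± 0.21), Junb (1.25 ± 0.09), Egr3 (0.88 ± 0.20), Dusp1 (0.87 ± 0.13) and Egr2 (0.43 ± 0.11) rose, and Jun fell by 0.71 ± 0.09. The heat shock genes Hspa1a (-1.10 ± 0.20) and Hspa1b (-1.08 ± 0.31) were lower; they are near-identical copies, and their reads are uncertain.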
